A study of Arabidopsis thaliana with 27 samples.

Results

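Transcripts of 3 genes of reactive carbonyl and oxidative detoxification were followed in Arabidopsis thaliana sprayed with 6 chemical activators of plant defence. They are AER (AT5G16970, alkenal reductase), ALDH7B4 (AT1G54100, aldehyde dehydrogenase 7B4) and AT5G64250, which is described as a nitronate monooxygenase-like protein. They were taken by their annotation, as 3 of the 416 genes named on the array, and each has 2 spots. All 3 had values in enough conditions to be among the 180 genes that were tested.

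When membrane lipids are oxidised, they break down into aldehydes and ketones that react with proteins and DNA. Plants remove these carbonyls by several routes. AER reduces the double bond that makes alkenals reactive, and aldehyde dehydrogenases such as ALDH7B4 oxidise the aldehyde group to a carboxylic acid. Nitronate monooxygenases, the family that AT5G64250 resembles, are flavin enzymes that oxidise nitronates, which are toxic forms of nitroalkanes. Salicylic acid is a defence hormone whose build-up goes with oxidative bursts.

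The plants were Columbia, 28 days old and grown in soil. They were sprayed with 5 mM salicylic acid (SA), 1 mM INA, 0.5 mM BTH, 10 mM BABA, 1 mM ethephon (ET), which releases ethylene, or 0.1 mM methyl jasmonate (MeJA, named JA in the sample titles), then kept at high humidity for 2, 5, 10 or 24 h. INA and BTH are functional analogs of SA, and BABA is a beta-amino acid that primes defence. The control on every array was RNA of untreated plants grown in parallel, which are not described as mock sprayed, so that spraying and humidity cannot be told apart from the agent in a comparison with untreated plants. Material from replicate experiments was combined ahead of RNA extraction, and repeat arrays shared an RNA, which left 1 sample for each of the 24 conditions. The labels call the tissue both leaves and the whole plant without root. None of the 5 leaf marker genes listed for this check was among the named spots, so the tissue label could not be checked with them.

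Values are log2 ratios of treated (Cy5) over untreated (Cy3) with the median spot of every array set to 0, and a value of 1 is a 2-fold higher ratio. The files do not name the base of their logarithm, and base 2 was assumed. A natural logarithm would multiply all log2 values by 1.44. Dyes were never swapped, so a dye effect of a gene that stayed the same on all arrays cannot be told apart from a difference from untreated plants, whereas it cancels between agents. In RNA from whole tissue, a change in the share of a cell type and a change in RNA per cell cannot be told apart either. The 27 arrays held between 1204 and 2358 of 2560 spots with a value, and their deposited medians ran from -0.76 to 1.49. PYK10, a beta-glucosidase and the single gene with values among 5 listed markers of root, seed and flower, differed between agents, with means from -1.40 under BTH to 1.31 under MeJA. Its part in the results below was not tested.

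SA gave the highest mean ratio of the 6 agents for all 3 genes. The time courses are described for each gene, and whether they differed between the genes was not tested. Outside SA, 5 of 20 AER values and 19 of 20 AT5G64250 values were above the array median. The tests ask whether an agent's mean over its 4 times differed from 0 or from the mean of another agent, with a threshold of 0.05 on the adjusted p. The error of a mean is the standard error (SE) of the fit over all 24 conditions.

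AT5G64250 had the highest single value of the 3 genes. Its SA ratios at 2, 5, 10 and 24 h were 3.64, 2.75, 1.95 and 1.18. This is a 12.5-fold higher ratio at the earliest time and a 2.27-fold higher one at the latest, and all 4 values were above 1. Among the tested genes with a value on the array, it ranked 7 of 178 from the top at 2 h and 18 of 173 at 24 h.

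Under INA the ratio of AT5G64250 was 1.36 at 2 h, then 0.33, 0.29 and 0.20 at 5, 10 and 24 h. Under BTH it was 0.60, 1.30, 0.41 and 0.14 at the same times. INA was thus highest at 2 h and BTH at 5 h, and these peaks were the 2 values outside SA that exceeded the lowest SA value. ET gave 0.22, 0.84, 0.38 and 0.85, and MeJA gave 0.16, 0.58, 0.23 and 0.72 over the same times. Both courses had a higher value at 5 and 24 h than at 2 and 10 h. BABA gave 0.02, 0.24, 0.03 and -0.55, and the last of these was the lone value below 0 among the 24 conditions of AT5G64250.

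The mean of AT5G64250 over the 4 times was 2.38 ± 0.25 (SE, n = 4 times) under SA, a 5.21-fold higher ratio than in untreated plants (limma, adjusted p = 2.27e-08). In that comparison 72.8% of the tested genes were called and 37.2% were called higher, so a call under SA was common on this array. Under BTH the mean was 0.61 ± 0.25 (adjusted p = 0.0348), where 60% of the tested genes were called and 31.7% as higher. The means of 0.57 under ET (adjusted p = 0.0521), 0.55 under INA (adjusted p = 0.0586), 0.42 under MeJA (adjusted p = 0.167) and -0.07 under BABA (adjusted p = 0.834) did not pass. When the 27 arrays entered the fit unaveraged, arrays of the same RNA counted as separate samples. The INA mean then passed both without the replicate number as a block (0.54, adjusted p = 0.0340) and with it (0.53, adjusted p = 0.0446). It also passed in the deposited values (1.28) and with arrays centred on TUA5, an alpha-tubulin gene with 54 spots (1.47), as did the ET mean (1.21 and 0.94) and, with TUA5, the MeJA mean (1.35). The BTH call was lost without the 5 h conditions (0.38, adjusted p = 0.313) and without the 10 h conditions (0.68, adjusted p = 0.0802), while the SA call held in all 22 alternatives run.

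ALDH7B4 did not fall steadily under SA as AT5G64250 did, and this difference between the genes was not tested. Its SA ratios at 2, 5, 10 and 24 h were 1.69, 2.13, 2.22 and 1.58, so that the earliest and the latest values were both lower than the middle ones and all lay within 0.64 of each other. All 4 values were above every value of the other agents, which did not exceed 0.99. ALDH7B4 was the single one of the 180 tested genes (0.556%) for which all measured SA values lay above all measured values of the other 5 agents. Its rank from the top under SA went from 31 of 178 at 2 h to 10 of 180 at 10 h.

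Under 4 of the other agents ALDH7B4 was below 0 at 2 h and at 0.72 or above at 5 h. At the 4 times in order, BTH gave -1.15, 0.72, 0.51 and -0.88, and BABA gave -0.86, 0.83, 0.24 and -0.07. ET gave -0.53, 0.99, 0.90 and 0.16, and MeJA gave -0.15, 0.92, -0.60 and 0.06. Under INA the order was different, with 0.66 at 2 h, -0.02 at 5 h and 0.74 at 10 h. At 24 h of INA the gene had no value on either array, so 23 conditions were measured and INA has 3 times. The plain mean of these INA values was 0.46. The fitted INA mean given below differs from it because it also uses time effects fitted over all agents.

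The SA mean of ALDH7B4 was 1.91 ± 0.25 (SE, n = 4 times), a 3.75-fold higher ratio (limma, adjusted p = 6.66e-07). No other agent's mean passed the threshold with arrays centred on their median. These means were 0.38 under ET (adjusted p = 0.198), 0.37 ± 0.29 under INA (SE, n = 3 times, limma adjusted p = 0.274), 0.06 under MeJA (adjusted p = 0.865), 0.04 under BABA (adjusted p = 0.899) and -0.20 under BTH (adjusted p = 0.522). The BTH mean turned to 0.11 in the deposited values without centring, to 0.03 without the 24 h conditions and to 1.16 with arrays centred on TUA5. The last of these passed as higher (adjusted p = 0.00040). Higher calls also arose for INA (1.22 as deposited and 1.23 with TUA5), ET (1.02 and 0.74) and, with TUA5, MeJA (0.98).

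AER was the one of the 3 genes that was called lower under any agent. At 2, 5, 10 and 24 h of SA its ratio was 2.95, 2.30, 1.10 and 0.26. The INA values at these times were 2.07, 0.87, -0.02 and -0.10. Both courses were highest at 2 h and lowest at 24 h, and at each time the SA value was above the INA value. At 2 h AER ranked 12 of 178 from the top under SA and 12 of 177 under INA.

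Under BTH the AER ratios were 0.45, -0.03, 0.00 and -0.84 from 2 to 24 h. BABA gave -0.61, -1.06, -1.01 and -1.03, and ET gave -0.74, -0.77, -0.48 and -1.05 over the same times. Both agents were below 0 at all 4 times. MeJA gave -0.22, -0.99, 0.02 and -1.20, and the last of these was the lowest AER value of all conditions. Of the 20 values outside SA, 3 exceeded the lowest SA value, namely INA at 2 and 5 h and BTH at 2 h.

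AER had a mean of 1.65 ± 0.25 (SE, n = 4 times) under SA, a 3.14-fold higher ratio (limma, adjusted p = 4.21e-06). Under INA the mean was 0.70 ± 0.25 (adjusted p = 0.0186), in a comparison that called 60% of the tested genes, 32.8% as higher. The INA mean was 0.25 without the 2 h conditions (adjusted p = 0.417), 0.65 without the 5 h conditions (adjusted p = 0.0884) and 0.59 without the repeat arrays numbered 2 (adjusted p = 0.0535), and none of these passed. AER was lower under BABA at -0.93 ± 0.25 (adjusted p = 0.0023), where 66.7% of the tested genes were called and 32.8% as lower. It was lower under ET as well, at -0.76 ± 0.25 (adjusted p = 0.0131), where 53.9% were called and 21.7% as lower. The means of -0.60 under MeJA (adjusted p = 0.0538), where 46.1% of the genes were called, and of -0.10 under BTH (adjusted p = 0.775) did not pass.

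The lower calls of AER depended on where each array was centred. In the deposited values the means were -0.55 under BABA (adjusted p = 0.159) and -0.12 under ET (adjusted p = 0.770), and with arrays centred on TUA5 they were -0.66 (adjusted p = 0.0901) and -0.40 (adjusted p = 0.323). The ET call was also lost with the 27 arrays unaveraged and the replicate block (-0.73, adjusted p = 0.0603, against 0.0112 without the block), without the 5 h conditions (-0.76, adjusted p = 0.0510) and without the 24 h conditions (-0.66, adjusted p = 0.0582). Centred on TUA5, the AER mean was 0.32 under MeJA (adjusted p = 0.382) and 1.26 under BTH (adjusted p = 0.0020), which reversed both directions.

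**Figure D1:**
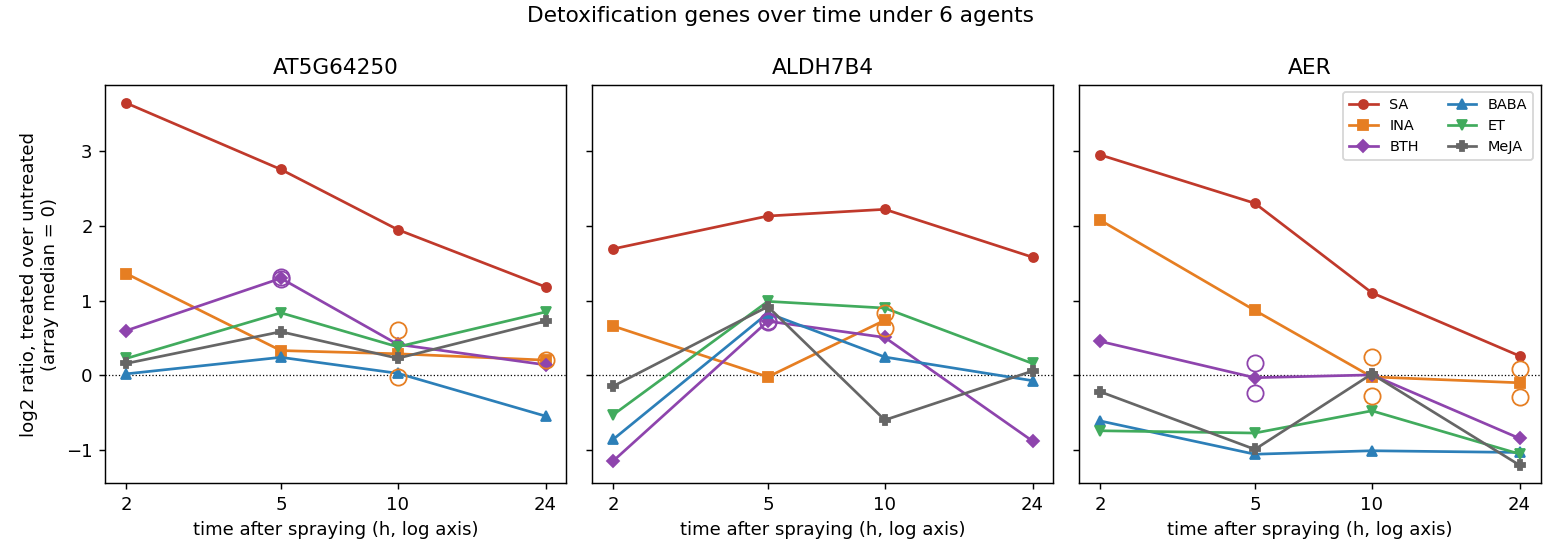
Log2 ratio of treated over untreated plants (y axis, array median at 0) against hours after spraying (x axis, log axis) for AT5G64250, ALDH7B4 and AER, with a line for each agent. Open circles are the separate arrays of the conditions with repeat arrays. The SA line lies above the other 5 at every time in the ALDH7B4, AER and AT5G64250 panels, goes from 3.64 to 1.18 for AT5G64250 and from 2.95 to 0.26 for AER, and stays between 1.58 and 2.22 for ALDH7B4.

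**Figure D2:**
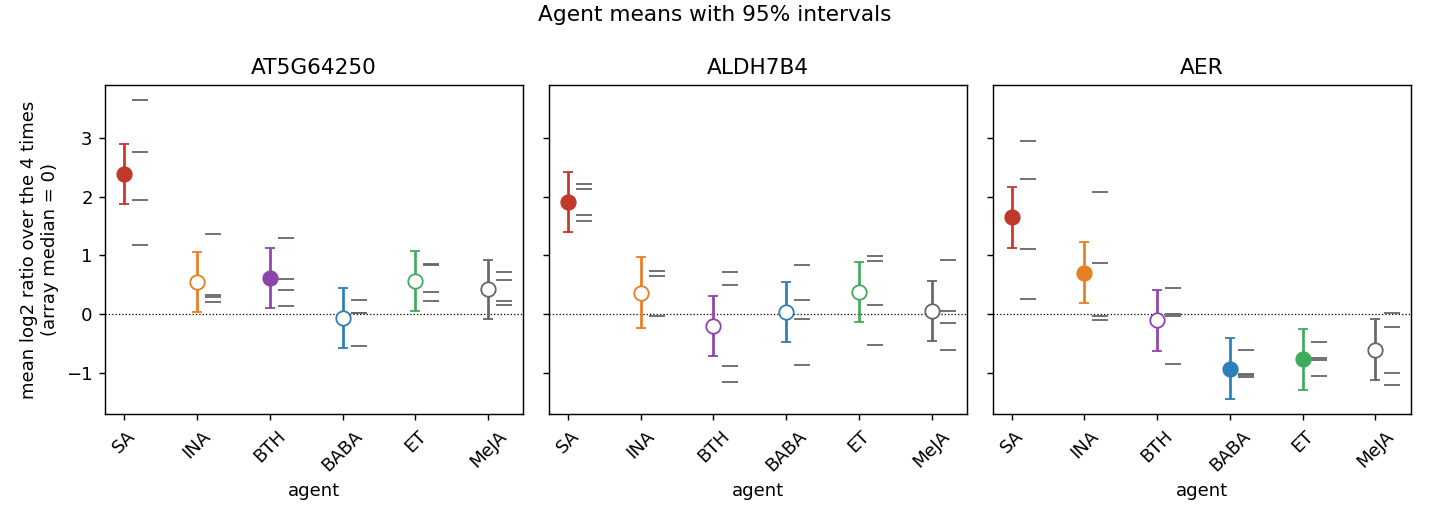
Mean log2 ratio over the 4 times (y axis) under each agent (x axis), with 95% intervals of the fit as bars and the single conditions as short dashes. Filled points passed the threshold of 0.05 on the adjusted p. SA is filled in all 3 panels, BTH for AT5G64250 at 0.61, and INA at 0.70, BABA at -0.93 and ET at -0.76 for AER.

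The agents were next set against each other, which removes any dye effect shared by all arrays. The doses differed, from 0.1 mM MeJA to 10 mM BABA, so dose and agent cannot be told apart. All 15 pairs of agents were compared for each gene, which makes 45 differences. Of these, 17 passed when p-values were adjusted over the 180 genes of each pair, and 18 when they were adjusted over all genes and pairs together. Over all tested genes, the share called in a pair ran from 6.67% for INA and SA to 58.3% for MeJA and SA. The count of 17 by itself therefore does not set these genes apart.

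For AT5G64250 all 5 differences from SA passed, and none of the 10 pairs without SA did, nor had any of these an unadjusted p under 0.05. The mean was lower than under SA by 1.84 ± 0.35 on the log2 scale under INA (difference -1.84, limma adjusted p = 0.0034). That comparison called few genes, 6.67% of those tested and 3.89% as lower under INA. The other differences from SA ran from -2.45 under BABA to -1.77 under BTH. In those comparisons the share of genes called was 40.6% for BTH, 38.9% for BABA, 56.7% for ET and 58.3% for MeJA. Without the 5 h conditions the INA difference was -1.64 and was not called (adjusted p = 0.0798).

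The order of the AT5G64250 means was SA, BTH, ET, INA, MeJA and BABA. Below SA, no neighbours in this order passed the threshold. The differences among the 5 lower agents lay between -0.68 and 0.64, with 95% intervals that reached from -1.40 to 1.36, and the smallest adjusted p was 0.113.

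ALDH7B4 likewise differed from SA under all 5 other agents and in none of the 10 pairs without SA, where no unadjusted p was under 0.05 either. It was lower by 1.54 ± 0.38 under INA (difference -1.54, limma adjusted p = 0.0142), and the other differences ran from -2.10 under BTH to -1.53 under ET. AT5G64250 and ALDH7B4 were thus among the 12 genes called between INA and SA. The ALDH7B4 call in that pair was lost in the deposited values (-1.47, adjusted p = 0.131), after scaling of the arrays to a common spread (-1.31, adjusted p = 0.0887) and without time terms (-1.45, adjusted p = 0.231). The order of the means was SA, ET, INA, MeJA, BABA and BTH, with differences among the lower 5 between -0.57 and 0.58 and intervals from -1.36 to 1.30.

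AER gave a graded order of SA, INA, BTH, MeJA, ET and BABA, in which no neighbours passed the threshold within their pair, although the 95% intervals of the first 2 neighbour differences excluded 0. SA and INA differed by -0.95 ± 0.35, with a 95% interval from -1.68 to -0.22. This did not pass within the pair (limma, adjusted p = 0.0933) and did when adjusted over all pairs together (adjusted p = 0.0378). INA and BTH were the next neighbours, with a difference of -0.81 (95% interval -1.54 to -0.08, adjusted p = 0.0843). The differences of BTH, BABA, ET and MeJA from SA all passed and ran from -2.58 under BABA to -1.76 under BTH.

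Unlike the other 2 genes, AER also separated agents other than SA. It was lower than under INA by 1.63 under BABA (difference -1.63, limma adjusted p = 0.0038), by 1.47 under ET (difference -1.47, adjusted p = 0.0020) and by 1.30 under MeJA (difference -1.30, adjusted p = 0.0043). These pairs called 17.8%, 34.4% and 50% of the tested genes. The difference between BABA and BTH of -0.82 came nearest to the threshold among the rest (adjusted p = 0.0600, 95% interval -1.56 to -0.09). The remaining pairs without SA, in which none of the 3 genes was called, gave shares of 33.9% for BTH and INA, 46.7% for BABA and BTH, 23.9% for ET and BTH, 46.1% for ET and BABA, 34.4% for MeJA and BTH, 58.3% for MeJA and BABA and 21.1% for MeJA and ET. Whether the pattern over agents differed between AER and the other 2 genes was not tested.

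Late times (10 and 24 h) were compared with early times (2 and 5 h). Over all 6 agents AER was lower late than early by 0.71 ± 0.21 (difference -0.71, limma adjusted p = 0.0173), and AT5G64250 by 0.52 ± 0.18 (difference -0.52, adjusted p = 0.0479). That comparison called 25% of the tested genes, 16.1% as lower late. ALDH7B4 showed a difference of 0.03 ± 0.30, with a 95% interval from -0.61 to 0.67 (adjusted p = 0.963). With the 27 arrays unaveraged the ALDH7B4 value was -0.023 without the replicate block and -0.036 with it, neither called. The AT5G64250 call was lost without any of the times in turn, with values from -0.58 to -0.46. It was lost without the repeat arrays numbered 2 (-0.46, adjusted p = 0.104) and without the ET 10 h array (-0.48, adjusted p = 0.0897) too. The AER call was lost without the 2 h conditions (-0.42, adjusted p = 0.407) and without the 24 h conditions (-0.41, adjusted p = 0.257). Both calls were lost in the deposited values (-0.66 for AER and -0.43 for AT5G64250), with arrays centred on TUA5 (-0.31 and -0.10) and after quantile normalization (-0.51 and -0.42).

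Within SA alone the late minus early difference was -1.94 ± 0.51 for AER (limma, adjusted p = 0.0749) and -1.63 ± 0.45 for AT5G64250 (adjusted p = 0.0865), neither past the threshold. In this contrast 1.11% of the tested genes passed. With the 27 arrays unaveraged the AER difference, also -1.94, passed without the replicate block (adjusted p = 0.0379) and with it (adjusted p = 0.0450). That fit counts arrays of the same RNA as separate samples. SA had no repeat arrays, so the fit adds no measurement of SA. Within INA the AER difference was -1.53 ± 0.51 (adjusted p = 0.175), in a contrast where 0% of the tested genes passed and 25 had an unadjusted p under 0.05 (limma). None of the 3 genes was called within BTH, BABA, ET or MeJA, where 0%, 0.556%, 0% and 0.556% of the tested genes passed. An unadjusted p under 0.05 was found for 20 genes within BTH and 13 within ET. For ALDH7B4 within SA it was -0.01 ± 0.71, with a 95% interval from -1.51 to 1.49. Whether the time course differed between agents or between genes was not tested.

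The measurements behind these values were compared at the level of spots and arrays. The absolute difference between the 2 spots of a gene on an array had a median of 0.19 for AT5G64250 over 24 arrays, 0.10 for ALDH7B4 over 25 arrays and 0.11 for AER over 27 arrays. The highest such differences were 0.95, 0.40 and 0.58. The median spread between spots was thus small against the SA means of all 3 genes. It was larger for the highest value of AT5G64250, at 2 h of SA, which averages spots of 3.235 and 4.049.

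Arrays of the same RNA differed more than spots for AER. At 10 h of INA its ratio was -0.28 on the first array and 0.24 on the second, at 24 h of INA -0.29 and 0.08, and at 5 h of BTH -0.24 and 0.17. All 3 pairs changed sign, with differences from 0.37 to 0.52 between the arrays of a pair. ALDH7B4 gave 0.84 and 0.64 at 10 h of INA and 0.73 and 0.72 at 5 h of BTH. AT5G64250 gave 0.60 and -0.03 at 10 h of INA and 1.31 and 1.29 at 5 h of BTH. Of these BTH values, the first rests on a single spot, and the second averages spots of 1.76 and 0.81. At 24 h of INA AT5G64250 had a value on the second array alone. Labels conflicted for a pair of arrays, since the first one titled INA 10 h has a source name of 2 h and the one titled ET 10 h has a protocol of 5 h.

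Over all conditions the values had an SD of 1.14 for AER, 0.93 for AT5G64250 and 0.93 for ALDH7B4, against a median of 0.74 over the 180 tested genes. AER was 33 in the order of SDs, and AT5G64250 and ALDH7B4 were 53 and 54. The 3 genes were therefore more variable than the middle gene of the array and not among its most variable ones.

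The likeness of the 3 patterns was described by correlation over conditions, which share arrays, centring and possibly the untreated RNA. AT5G64250 and AER correlated with Pearson r = 0.81 over 24 conditions, AT5G64250 and ALDH7B4 with 0.71 over 23, and ALDH7B4 and AER with 0.50 over 23. Without the SA conditions, a choice made after seeing the data, these values were 0.43, 0.40 and -0.01. All 3 values were lower without the SA conditions, and that of ALDH7B4 and AER was then near 0.

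**Figure D3:**
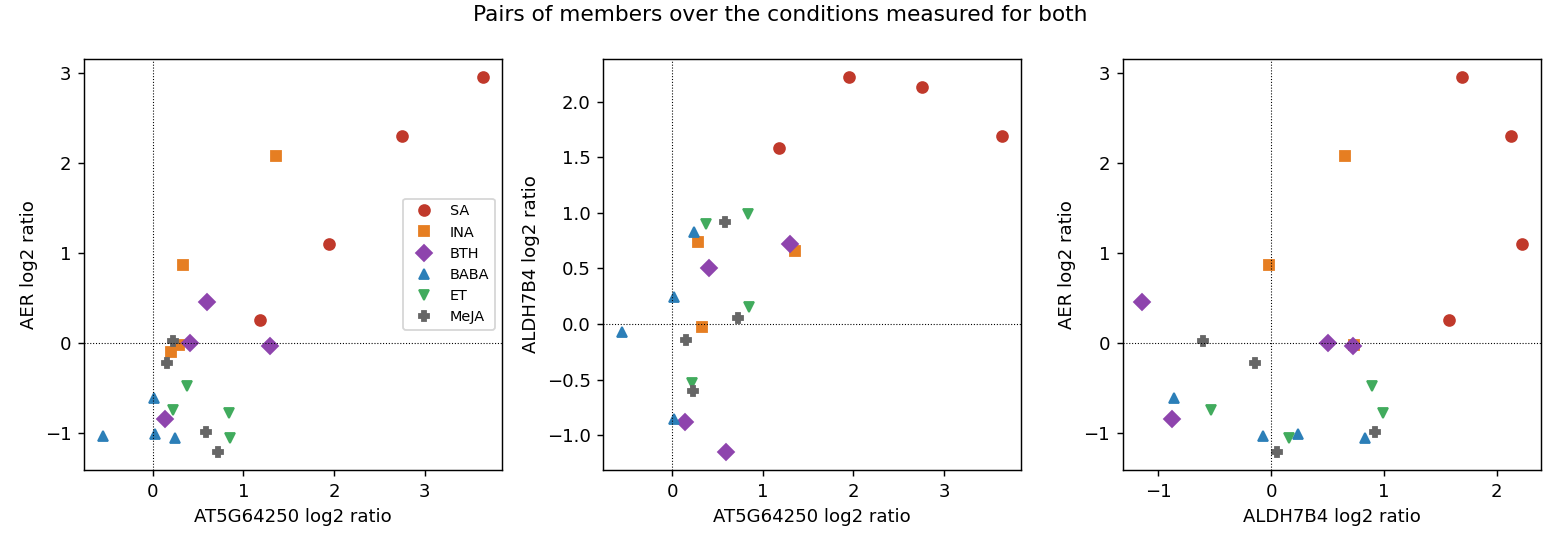
Log2 ratios of each pair of the 3 genes plotted against each other, with a point for every condition measured for both and a symbol for each agent. The SA points stand apart at the upper right in the panel of AT5G64250 and ALDH7B4. In the panel of ALDH7B4 and AER the points of the other agents show no common direction (r = -0.01 without SA).

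Among the 180 tested genes, those most like AT5G64250 over the conditions were AT3G55430 (r = 0.81), AER (0.81), AT1G33110 (0.81), AT4G18950 (0.75) and ALDH7B4 (0.71). The median r of AT5G64250 with all tested genes was -0.03. By Spearman rho AT1G33110 came first at 0.84, and AER was lower at 0.53. For AER the nearest were AT4G18950 (r = 0.82), AT5G51830 (0.82), AT5G64250 (0.81), AT3G55430 (0.81) and UGT73B1 (0.75), a UDP-glucosyl transferase gene. AT3G55430 and AT4G18950 were thus among the 5 nearest genes of both AT5G64250 and AER by Pearson r. Without the SA conditions their r was 0.43 and 0.36 with AT5G64250, and 0.53 and 0.63 with AER. That of AT1G33110 with AT5G64250 was then 0.59, and those of AT5G51830 and UGT73B1 with AER were 0.67 and 0.59. All of these were lower than with SA included.

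For ALDH7B4 the nearest were AT5G64250 (r = 0.71), AT5G43450 (0.70), AT2G31810 (0.66), AT5G16880 (0.64) and AT2G15960 (0.63). AER was not among them. AT2G31810 and AT5G16880 kept their values without the SA conditions, at 0.67 and 0.66. The others were lower, with AT5G64250 at 0.40, AT5G43450 at 0.54 and AT2G15960 at 0.43.

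Few other genes of carbonyl and oxidant detoxification were among the named spots, and what the 1676 unnamed spots of the 2560 held is unknown. Of 88 genes on 5 lists of such families, 10 were among the named spots, the 3 genes above included, and 4 were tested. The aldehyde dehydrogenase list of 15 genes and the antioxidant list of 21 genes had no named member besides ALDH7B4 and AT5G64250, and none of the 23 listed glutathione transferases was named. Of 13 genes listed with the alkenal reductase family, 4 were named besides AER. None of these 4 had values in enough conditions for the test, so their values are descriptions.

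AT5G17000 lies close to AER on the chromosome, with 2 protein-coding genes of the same list, AT5G16980 and AT5G16990, between them in the TAIR10.1 annotation. Over the 4 times of SA its ratio was 3.24, 2.47, 1.24 and 0.98, and under INA it was 2.07, 0.33, -0.20 and -0.58. BTH gave 1.29, -0.12, -0.20 and -0.82. Like AER, AT5G17000 was highest at 2 h and lowest at 24 h under each of these agents. It was above AER at each time of SA and below it at each time of INA, though both rounded to 2.07 at 2 h of INA. Under BTH AT5G17000 was above AER at 2 and 24 h and below it at 5 and 10 h. Cross-hybridisation between cDNAs of this family was not assessed, so the values of AER and AT5G17000 may not be separate.

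Under ET the AT5G17000 ratio was -0.47, -0.35, -0.43 and -0.93, and under MeJA it was -0.10, -0.90, -0.66 and -0.83. BABA was measured at 5 h alone, at -1.13. All 9 of these values were below 0, as were the AER values of the same conditions except MeJA at 10 h.

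AT1G26320, another gene of the list, had values in 16 conditions. Its ratio was 1.35 at 2 h and 0.88 at 5 h of SA, and the later SA times had no value. Under ET it was -0.09, -0.90, -0.81 and -0.76, and its remaining values under INA, BTH and MeJA lay between -0.21 and 0.49. AT5G38000 had values in 6 conditions, from -0.34 to -0.02, and AT5G37940 in 3, from -0.07 to 0.10. None of the SA conditions was measured for these latter 2 genes.

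**Figure D4:**
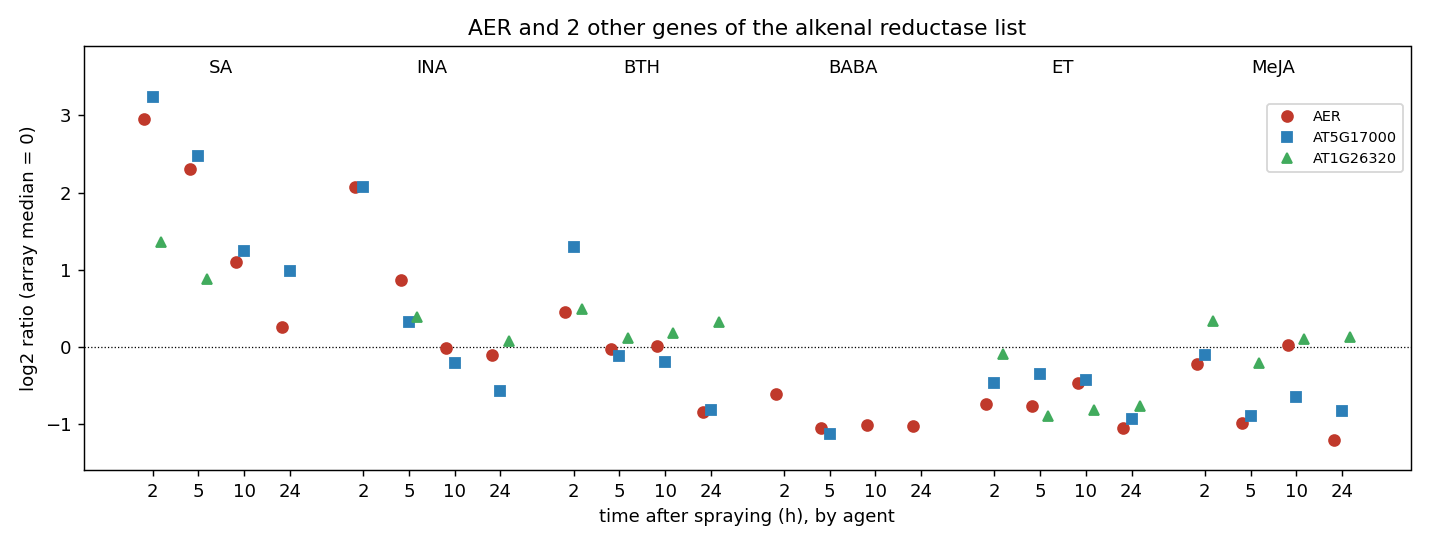
Log2 ratio (y axis, array median at 0) of AER, AT5G17000 and AT1G26320 at each time of each agent (x axis, hours within agents), with a gap where a gene had no value. AT5G17000 lies near AER in most conditions, from 3.24 at 2 h of SA to -1.13 at 5 h of BABA, and AT1G26320 reaches 1.35 under SA.

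Of 16 genes on a list of carbonyl reductases and related dehydrogenases, AT3G04000 and FDH had values. AT3G04000 was measured in 11 conditions and was not tested. It gave 3.02 and 1.70 at 2 and 5 h of SA, 0.60 at 2 h of INA, and 1.63, 1.81 and 2.21 at 2, 5 and 10 h of BTH. MeJA gave 1.60 and 1.57 at 2 and 5 h, and ET gave -0.08, 0.49 and 0.19 at 2, 5 and 10 h. Unlike the 3 detoxification genes, AT3G04000 was thus above 1 under BTH and MeJA at every time measured.

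FDH, formate dehydrogenase, oxidises formate to carbon dioxide and was above 0 in all 24 conditions. It was called higher under all 6 agents. The means were 2.48 for ET, 1.80 for BABA, 1.37 for BTH, 1.30 for INA, 1.29 for SA and 1.15 for MeJA. Each had an SE of 0.19 (limma, largest adjusted p = 2.21e-05). The share of tested genes called higher ran from 22.2% under MeJA to 37.2% under SA, and the share called higher under all 6 was not counted. A dye effect, spraying and humidity cannot be told apart from the agents in these FDH means. SA, the agent with the highest means of AER, ALDH7B4 and AT5G64250, gave FDH the second lowest of its 6 means.

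The choice of what to set to 0 on each array moved all genes together. Relative to the array median, the median of the 180 tested genes was 0.06 under SA, and it was 0.85 in the deposited values and 1.22 with arrays centred on TUA5. Under BTH it was 0.04, 0.36 and 1.40 in the same order. TUA5 had a mean below 0 on 25 of 27 arrays. The SA means of AT5G64250, ALDH7B4 and AER stayed past the threshold under each centring, at 3.54, 3.07 and 2.82 when TUA5 was set to 0. AT5G64250 under BABA turned from -0.07 to 0.31 as deposited and to 0.20 with TUA5 at 0, uncalled in each case, and the changes of direction of ALDH7B4 and AER under BTH and of AER under MeJA are given above.

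**Figure D5:**
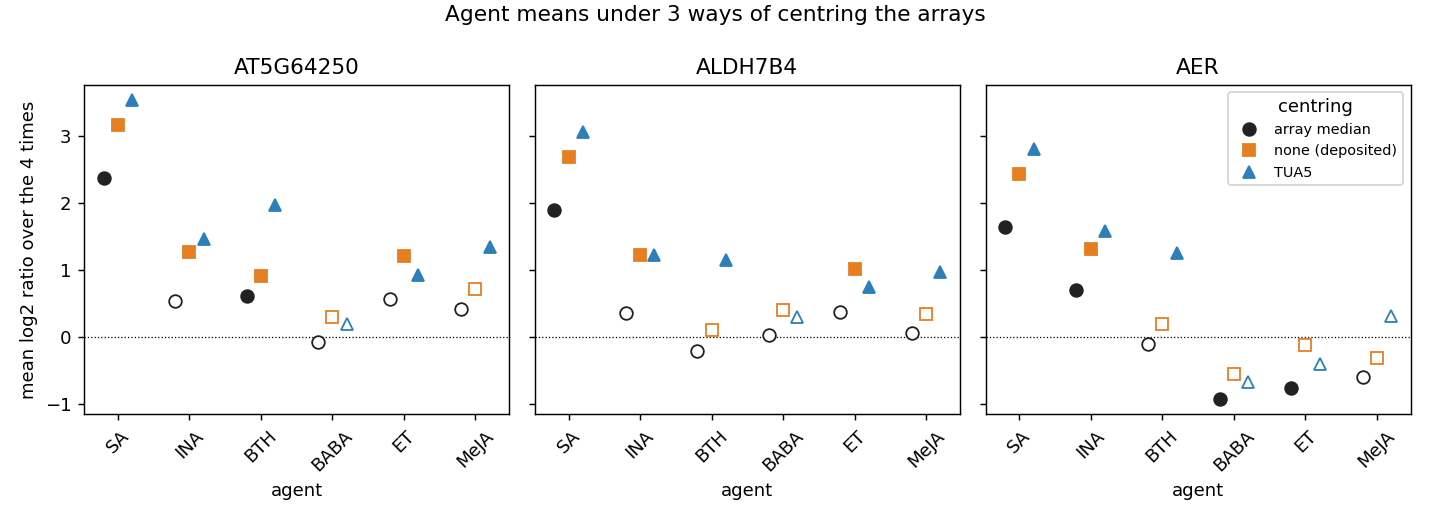
Mean log2 ratio over the 4 times (y axis) under each agent (x axis) with arrays centred on their median, left as deposited, or centred on TUA5. Filled symbols passed the threshold of 0.05 on the adjusted p. SA is filled throughout, while AER under BTH goes from -0.10 to 1.26 and AER under MeJA from -0.60 to 0.32 when TUA5 is set to 0.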

How the data were processed

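The authors' deposited table holds 1 log2 ratio per spot and array for 27 arrays (the logarithm is taken as log2). Per the labels' protocols, ScanArray Express gave each spot its median pixel intensity. Any background correction, spot filter or normalization is not given in the sources used. Gene names of spots come from the platform annotation of 2007, updated with RefSeq TAIR10.1 names, by which 415 of 416 genes matched and 1676 spots stayed unnamed.

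Array medians were set to 0, the spots of a gene averaged, and repeat arrays of an RNA averaged. Genes measured in 20 or more of 24 conditions, and at 3 or more times of every agent, were tested. The fit had a mean for each agent plus time effects summing to 0 (or a mean for each agent and phase, for late against early), by least squares on measured conditions with limma's moderated variance (R 4.3.3, limma 3.58.1). P-values are two-sided and adjusted by Benjamini-Hochberg over the 180 genes within a comparison. They measure the spread over conditions that the model leaves, which may be partly technical, and no biological replicates exist within a condition. The number of arrays limits the precision, and no intensities were used here. The fit was tested on simulated data.

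The members and lists were chosen with earlier results of these data known. Named are the 3 genes, other genes of the lists with values, the 5 tested genes with the highest r for each, TUA5, and PYK10 as the single tissue marker with values. Arrays numbered 1 deviated together from the means of their repeat pairs (correlations of 0.583, 0.533 and 0.438 over genes), so the replicate numbers were treated as pairing the arrays. Alternatives covered centring, spots, filter, repeat arrays, time terms, times left out, spread and adjustment.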

Additional observations from a re-analysis of the deposited data

Results flagged for a closer look

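A test of late against early times called 2 of the 3 genes. It called 25% of all tested genes, 16.1% as lower late. Averaged over the 6 agents, the log2 ratio of AER was lower at 10 and 24 h than at 2 and 5 h (difference -0.71 ± 0.21, limma adjusted p = 0.0173). That of AT5G64250 was lower as well (difference -0.52 ± 0.18, limma adjusted p = 0.0479). These calls depended on the processing. That of AER was made in 16 of 21 alternatives and that of AT5G64250 in 9 of 21, and with arrays centred on TUA5 the differences were -0.31 and -0.10, both uncalled. Under single agents the AER difference ran from -1.94 under SA and -1.53 under INA to -0.01 under ET and 0.01 under MeJA, and that of AT5G64250 from -1.63 under SA to 0.10 under MeJA. Within single agents none of these differences passed the threshold for AER or AT5G64250 with repeat arrays averaged, although AER under SA and INA and AT5G64250 under SA had unadjusted p-values under 0.05. With the 27 arrays unaveraged, AER under SA passed without the replicate block (adjusted p = 0.0379) and with it (adjusted p = 0.0450). That fit counts arrays of the same RNA as separate samples, and SA had no repeat arrays. Whether agents differed in the late minus early difference was not tested.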

How the results depend on the processing

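The SA means of AT5G64250, ALDH7B4 and AER kept their direction and their call in all 22, 19 and 22 alternatives run, and so did their differences of BTH, BABA, ET and MeJA from SA. Over the 36 results on agents and times, 679 of 768 alternatives kept direction and side of the threshold, 39 lost the call, 32 gained one and 18 turned the sign. ALDH7B4 could not be tested without the 2, 5 or 10 h conditions, which leave INA at too few times. There is no signal over background here, so what dim spots limit is unknown. For all changes below the cause was not tested.

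Without centring, the mean under INA was 1.22 for ALDH7B4 and 1.28 for AT5G64250, and under ET 1.02 and 1.21, all called. AER was at 0.21 under BTH, -0.55 under BABA and -0.12 under ET, uncalled, as were ALDH7B4 under BTH (0.11) and AT5G64250 under BABA (0.31). The ALDH7B4 difference of INA from SA was -1.47, and late minus early was -0.66 for AER and -0.43 for AT5G64250, uncalled. With TUA5 set to 0, INA gave 1.23 for ALDH7B4 and 1.47 for AT5G64250, BTH 1.26 for AER and 1.16 for ALDH7B4, ET 0.74 for ALDH7B4 and 0.94 for AT5G64250, and MeJA 0.98 for ALDH7B4 and 1.35 for AT5G64250, all called. AER was at -0.66 under BABA, -0.40 under ET and 0.32 under MeJA, AT5G64250 at 0.20 under BABA, and late minus early at -0.31 for AER and -0.10 for AT5G64250, uncalled.

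Scaling gave AT5G64250 calls under INA (0.54) and ET (0.60), an AER call under MeJA (-0.70), and uncalled values of -0.058 for ALDH7B4 under BABA, -1.31 for its INA difference from SA and -0.041 for its late minus early. Quantile normalization gave AT5G64250 calls under INA (0.56), ET (0.64) and MeJA (0.53) and an AER call under MeJA (-0.64). ALDH7B4 was then at -0.11 under BABA, and late minus early at -0.51 for AER and -0.42 for AT5G64250, uncalled. The first spot alone gave ALDH7B4 -0.017 and AT5G64250 0.0046 under BABA, uncalled, and a call of 0.62 for AT5G64250 under ET. The second spot alone lost AT5G64250 under BTH (0.51) and in late minus early (-0.49), and no filter lost the latter (-0.52, adjusted p = 0.0523).

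Without time terms AER under INA (0.70) and ET (-0.76), AT5G64250 under BTH (0.61), the ALDH7B4 difference of INA from SA (-1.45) and AER between BABA and INA (-1.63) were not called. Agents fitted alone lost AER under INA (0.70) and AT5G64250 under BTH (0.61) and called the AER difference of INA from SA (-0.95), as did adjustment over all pairs (-0.95). Trended variances called AER under MeJA (-0.60). Without the 2 h conditions AER was at 0.25 under INA, uncalled, and -0.73 under MeJA, called, and AT5G64250 at 0.69 under ET, called. Late minus early was then -0.42 for AER and -0.52 for AT5G64250, uncalled. Without 5 h, AER under INA (0.65) and ET (-0.76), AT5G64250 under BTH (0.38), its INA difference from SA (-1.64) and its late minus early (-0.51) were uncalled. Without 10 h, AT5G64250 was uncalled under BTH (0.68) and in late minus early (-0.58), and AER was called under MeJA (-0.80). Without 24 h, AT5G64250 was called under INA (0.66) and lay at 0.095 under BABA. AER was then at 0.14 under BTH and -0.66 under ET, ALDH7B4 at 0.028 under BTH, and late minus early at -0.41 for AER and -0.46 for AT5G64250, uncalled. At 24 h minus 2 h, AT5G64250 gave -0.58, uncalled.

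With the 27 arrays unaveraged, arrays of the same RNA counted as separate samples. In that fit AT5G64250 was called under INA (0.54) and ET (0.57), AER under MeJA (-0.60), in its INA difference from SA (-1.08) and in late minus early under SA (-1.94), and late minus early of ALDH7B4 was -0.023. With the replicate block as well, AT5G64250 under INA (0.53) and AER in late minus early under SA (-1.94) were again called, and ALDH7B4 had -0.036 in late minus early. Against the unaveraged fit the block lost the calls of AER under ET (-0.73) and MeJA (-0.57), of AT5G64250 under ET (0.56) and of the AER difference of INA from SA (-1.10). Among the results on agents and times given here it changed no other call. All repeat arrays numbered 2, all those numbered 1 of the same pairs, or either array with conflicting labels were also left out. This gave 0.59 to 0.82 for AER under INA. AER under MeJA, which has no repeat arrays, stayed at -0.60 (limma, adjusted p from 0.0458 to 0.0673). Late minus early was -0.033 to 0.045 for ALDH7B4 and -0.54 to -0.46 for AT5G64250. Without the ET 10 h array the last of these was -0.48 (adjusted p = 0.0897).

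Counts over all tested genes also moved. Higher and lower calls were 67 and 64 under SA, 59 and 49 under INA, 57 and 51 under BTH, 61 and 59 under BABA, 58 and 39 under ET, 40 and 43 under MeJA and 16 and 29 in late minus early. In the deposited values they were 97 and 14, 86 and 15, 60 and 27, 69 and 36, 90 and 11, 44 and 16, and 4 and 12. With TUA5 set to 0 they were 126 and 9, 118 and 13, 144 and 10, 72 and 43, 81 and 18, 126 and 8, and 35 and 11. Without 5 h, 66 genes were called under INA in place of 108 and 59 under ET in place of 97. Agents fitted alone gave 70 under INA, 79 under BABA in place of 120, 59 under ET and 45 under MeJA in place of 83. INA and SA differed in 12 genes, against 5 in the deposited values, 7 with TUA5, 6 with scaling, 1 without time terms, 7 without replicate 2, 0 without 5 h, 3 without 10 h, 24 unaveraged, 23 fitted alone and 27 adjusted over all pairs. The lowest counts of other pairs were 44 of 73 for BTH and SA, 33 of 70 for BABA and SA, 52 of 102 for ET and SA, 69 of 105 for MeJA and SA, 6 of 32 for BABA and INA, 33 of 62 for ET and INA and 49 of 90 for MeJA and INA. Late minus early over all agents called 45, against 14 without 2 h, 25 without 24 h and 76 at 24 h minus 2 h.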
